A study of Mus musculus with 12 samples.

Results

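The 51 genes described here carry out DNA replication and cell division. They were taken by name from a list, as every entry of the deposited tables whose gene name, or part of a joined name, was on it. All 51 were found among 24553 entries, and 20 of them act at the G1/S transition and in DNA replication while 31 act in mitosis and cytokinesis. The names E2f8, Mcm10 and Mki67 each stand in 2 entries, and the entry with the higher mean was used. Ccnd1 shares its entry with Mir3962 and Foxm1 with 4933413G19Rik, so these 2 values belong to joined loci.

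Messenger RNA was measured in 12 liver libraries of mice aged 8 months, 3 in each of 4 groups. WT liver and KO liver are normal tissue of male Setd2 wild type and Setd2 knockout mice that received no carcinogen. WT tumors and KO tumors are liver tumors of the same 2 genotypes, from male mice given 1 intraperitoneal dose of diethylnitrosamine (DEN), a DNA-alkylating liver carcinogen, at 25 mg/kg and 2 weeks of age. Sample titles write the knockout as cKO, and the labels name neither the promoter of a deleting transgene nor the deleted cells. Setd2 encodes the enzyme that trimethylates histone H3 at lysine 36. The labels give no batch and do not say outright that each library is a separate animal, so p-values measure only the variation among these samples, which may be technical. Genotype and DEN treatment were crossed, but every tumor came from a DEN-treated mouse and every normal liver from an untreated one, so effects of the tumor and of DEN cannot be told apart.

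A cell that leaves rest first raises D-type and E-type cyclins, whose kinases inactivate the retinoblastoma proteins and free E2F factors. E2F factors drive the genes that load the MCM helicase onto origins and supply nucleotides. Mitotic genes are switched on later by the MuvB complex with B-Myb and FOXM1, through a promoter sequence called the CHR. In resting cells the DREAM complex, which contains MuvB, holds both groups down. Adult hepatocytes rarely divide, and they re-enter the cycle after loss of tissue and in tumors.

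The promoters of the 2 phase groups differed in these elements. RefSeq promoter windows (build GRCm38.p6, 250 bases before to 50 after a start) matched 42 of the 51 members, 18 windows of G1/S genes and 28 of mitotic genes. A CHR (TTTGAA or TTCGAA, either strand) stood in 24 of 28 mitotic windows (85.7%) and 3 of 18 G1/S windows (16.7%), against 19.2% of all 32851 windows. Within 50 bases of the start, the shares were 78.6%, 5.56% and 5.31%. An E2F element (TTTCCCGC, TTTCGCGC, TTTGCCGC or TTTGGCGC, either strand, overlaps counted) stood in 7 of 18 G1/S windows (38.9%), in 1 mitotic window (3.57%) and in 2.27% of all windows. CCAAT was common to both groups, in 66.7% of G1/S and 85.7% of mitotic windows, against 37.4% of all. TATAAA stood in 0 of 18 G1/S windows and 3.57% of mitotic windows, against 13.6% of all. These shares describe letters in a window and are no measure of binding.

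The following 160 bases before the RefSeq start show both classes in genes whose RNA is described later: 2 helicase genes with E2F elements, 3 mitotic genes with CHR elements, and Cdk1 with both kinds. Capitals mark CHR and E2F matches on either strand. Each is written 5′ to 3′ on the strand of its gene, and lies upstream of the GENCODE gene apart from the last bases for Cdk1 and Cdc20.
Mcm6 (chr1:128359706-128359865, minus strand): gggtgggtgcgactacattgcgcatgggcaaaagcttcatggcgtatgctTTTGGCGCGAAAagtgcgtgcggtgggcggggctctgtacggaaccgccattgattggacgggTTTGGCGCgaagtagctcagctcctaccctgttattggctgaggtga
Mcm5 (chr8:75109349-75109508, plus strand): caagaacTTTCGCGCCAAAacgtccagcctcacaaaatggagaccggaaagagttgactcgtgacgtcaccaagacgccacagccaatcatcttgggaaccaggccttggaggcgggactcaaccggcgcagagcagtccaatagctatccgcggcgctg
Mki67 (chr7:135716380-135716539, minus strand): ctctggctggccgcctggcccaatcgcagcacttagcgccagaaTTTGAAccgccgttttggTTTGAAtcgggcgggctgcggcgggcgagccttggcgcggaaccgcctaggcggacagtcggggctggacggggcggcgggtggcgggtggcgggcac
Top2a (chr11:99024190-99024349, minus strand): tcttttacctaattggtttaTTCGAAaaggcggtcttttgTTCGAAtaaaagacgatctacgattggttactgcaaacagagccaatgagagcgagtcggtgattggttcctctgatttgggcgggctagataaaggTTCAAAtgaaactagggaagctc
Cdk1 (chr10:69352913-69353072, minus strand): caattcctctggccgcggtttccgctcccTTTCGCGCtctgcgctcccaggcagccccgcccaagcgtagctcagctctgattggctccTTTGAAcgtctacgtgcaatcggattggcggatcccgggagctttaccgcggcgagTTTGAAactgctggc
Cdc20 (chr4:118437344-118437503, minus strand): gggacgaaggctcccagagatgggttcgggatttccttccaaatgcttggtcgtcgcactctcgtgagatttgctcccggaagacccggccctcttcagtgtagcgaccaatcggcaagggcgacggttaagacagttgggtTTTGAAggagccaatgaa
In Mcm6 and in Mcm5, elements on opposite strands overlap in a single run of capitals. The element of Cdc20 starts at position -18 from the start, and the nearer one of Cdk1 at -15.

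Setd2 was checked before the members. Its FPKM (mapped fragments scaled by transcript length and by library size, so a level corrected for length) read 4.84, 3.85 and 4.7 in WT liver, 1.66, 1.93 and 1.32 in KO liver, 4.4, 3.61 and 4.07 in WT tumors and 3.14, 2.18 and 1.9 in KO tumors. All KO libraries lay below all WT libraries of the same tissue. The fall was -1.05 ± 0.14 on the log2 scale in normal liver (limma, adjusted p = 0.0108) and -0.57 ± 0.19 in tumors (adjusted p = 0.188), which did not pass. Summed over all entries, FPKM came to 423498 to 719538 per library, and an FPKM of 1 was reached by 10233 to 11620 entries. The files hold no read totals, so depth is unknown and counting error cannot be estimated. Apob, a hepatocyte transcript, stood between 793 and 1157 in all livers and WT tumors, and at 100.4, 214 and 618 in the KO tumors. Of 6 hepatocyte markers, 3 were lower in every KO tumor than in every WT tumor (7.34% of all entries), and 3 overlapped. Apoa1 was 6833 to 11310 in normal livers, 19940 to 27240 in WT tumors and 14530, 5458 and 14110 in KO tumors. Cps1 averaged 958 in WT liver and 449 in WT tumors.

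In normal liver the mitotic genes were close to silent and the G1/S genes were not. Over the 31 mitotic genes, the mean of log2(FPKM + 1) was 0.34 ± 0.07 (SD, n = 3) in WT liver and 0.38 ± 0.07 in KO liver, and 1 to 4 of them reached an FPKM of 1 in any normal library. Over the 20 G1/S genes it was 2.00 ± 0.08 and 1.92 ± 0.18, and 12 to 14 reached that level. In tumors the mitotic mean was 1.56 ± 0.23 in WT and 1.97 ± 0.99 in KO, and the G1/S mean was 2.57 ± 0.10 and 2.58 ± 0.30. The mitotic mean therefore stood below the G1/S mean by 1.66 in WT liver and 1.55 in KO liver, against 1.01 in WT tumors and 0.61 in KO tumors. In both genotypes every tumor lay above every normal liver in both means. These means describe the groups, and no test was made on them. In bulk tissue, fewer cells of a type and less RNA per cell cannot be told apart.

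**Figure D1:**
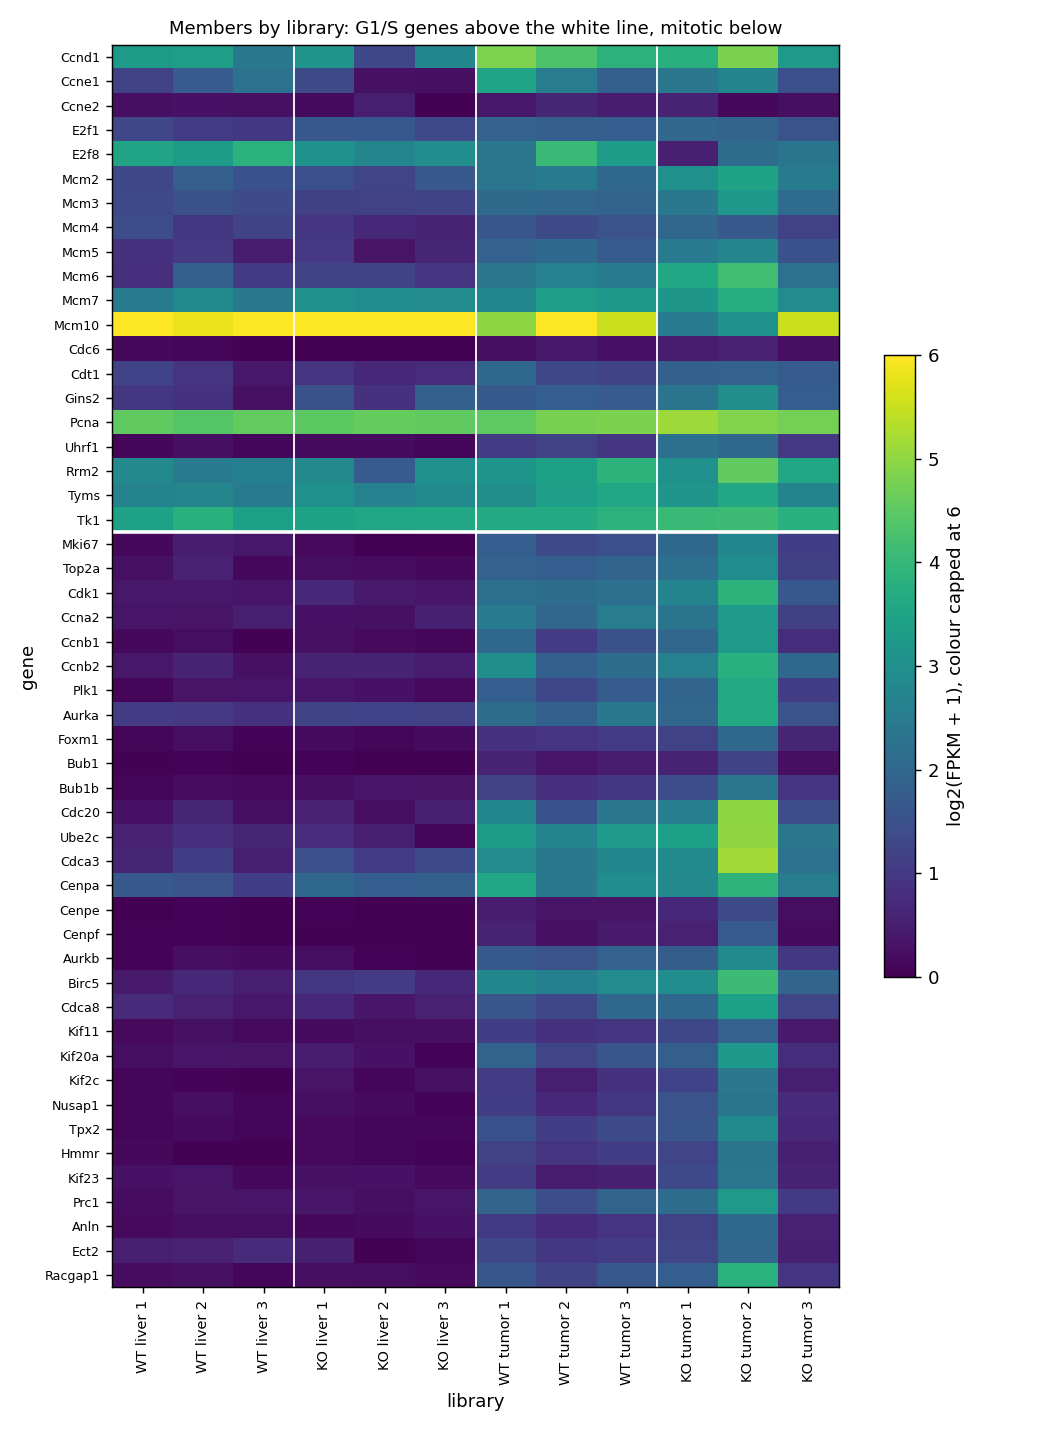
Levels of the 51 members (rows) in the 12 libraries (columns) as log2(FPKM + 1), with the colour capped at 6; G1/S genes are above the white line and mitotic genes below. Mitotic genes are dark in the 6 normal livers and lighter in the 6 tumors, most of all in KO tumor 2, while Pcna, Tk1, E2f8 and Mcm10 are already high in normal liver.

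**Figure D2:**
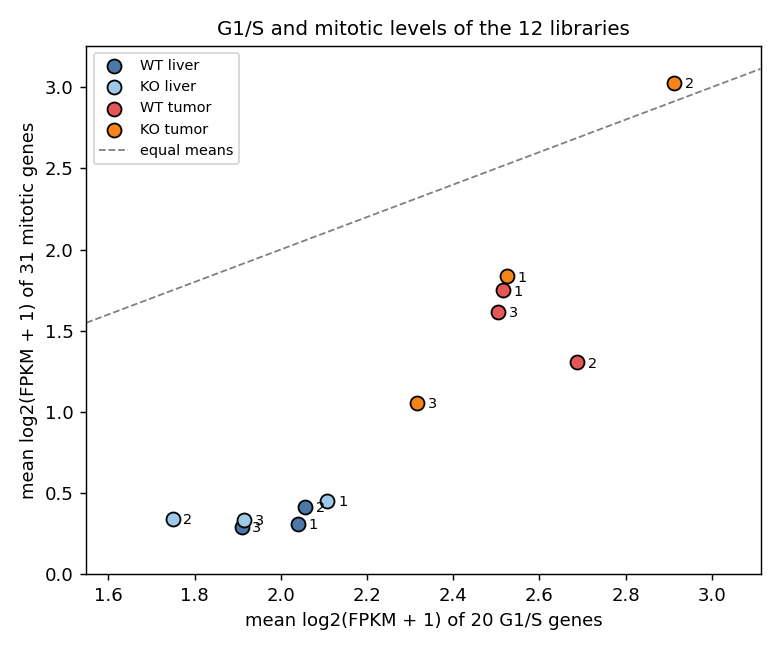
Each point is a library, with the mean log2(FPKM + 1) of the 20 G1/S genes on the x axis and of the 31 mitotic genes on the y axis; numbers are replicates and the dashed line marks equal means. The 6 normal livers lie together at a mitotic mean of 0.29 to 0.45, and KO tumor 2, at 3.03, is the only library above the line.

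The first comparison asked which members differ between WT tumors and WT normal liver. All 31 mitotic genes, and 13 of 20 G1/S genes, were higher in every WT tumor than in every WT liver, so 44 of 51 members did not overlap in that direction, against 16.8% of the 18825 entries above 0. The ratio of mean FPKM had a median of 10.6 over mitotic genes (2.29 to 24.6) and 2.03 over G1/S genes (0.573 to 9.78). Entries were tested with limma where FPKM reached 1 in at least 3 of the 12 libraries, which kept 46 members. Of these, 36 rose and 0 fell at an adjusted p below 0.05, 10 of 18 G1/S and 26 of 28 mitotic genes, while 8.01% of all 11671 tested entries rose and 8.96% fell. For 30 of the 46, fewer than 3 normal livers reached that level, so they entered the test through the tumors and their count supports nothing by itself. With no filter, all 51 were tested, and 28 rose, 4 G1/S and 24 mitotic genes, against 3.42% of all entries. Leaving out WT liver 3 lowered the 36 to 18. Scaling each library to a common sum (TPM) gave 39 rising members of 46 and moved the split of all entries from 935 up and 1046 down to 1660 and 408. The median change of the tested members was 1.01 on the log2(FPKM + 1) scale, which understates changes of low genes, and that of all tested entries was -0.04.

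**Figure D3:**
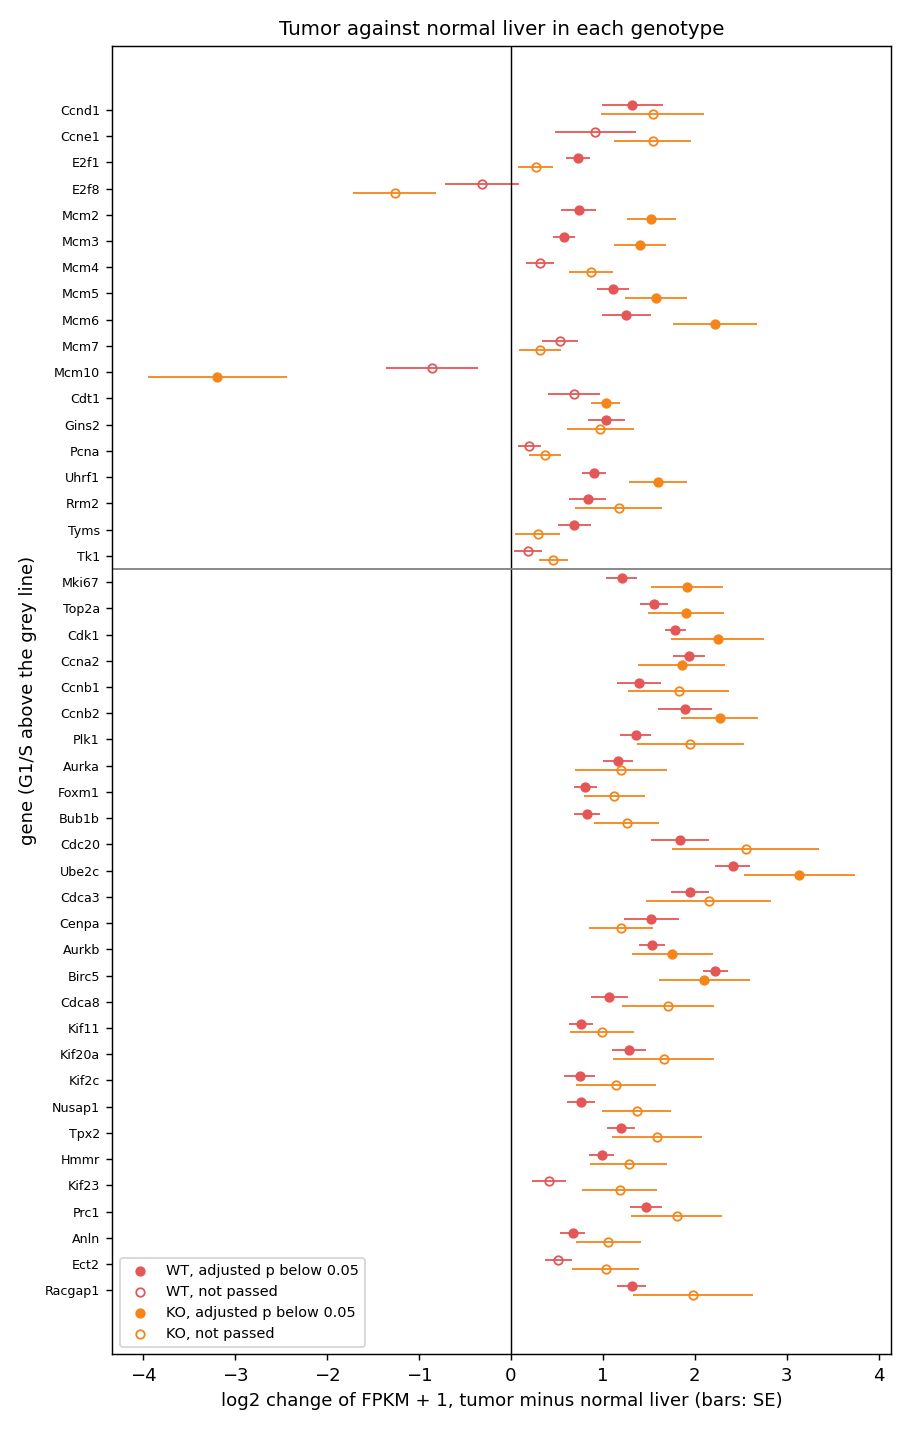
Change of each of the 46 tested members between tumor and normal liver, as the log2 difference of FPKM + 1 on the x axis with bars for SE, in WT (red) and KO (orange); filled points passed an adjusted p of 0.05. Mitotic genes, below the grey line, all lie right of 0 in both genotypes, KO bars are wider for the mitotic genes, and E2f8 and Mcm10 lie left of 0 in both.

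Among the G1 cyclins and E2F genes, Ccnd1, the D-type cyclin that couples growth signals to the cycle, had an FPKM of 8.68, 9.31 and 4.28 in WT liver, 7.8, 1.48 and 5.96 in KO liver, 27.5, 18.9 and 13.5 in WT tumors and 13.1, 27.4 and 8.41 in KO tumors. Every tumor of a genotype lay above every normal liver of it, and the rise of 1.32 ± 0.33 in WT passed (adjusted p = 0.036). Ccne1, the E-type cyclin that starts S phase, stood at 1.24, 2.31 and 3.77 in WT liver, 1.61, 0.212 and 0.193 in KO liver, 10.3, 4.86 and 2.6 in WT tumors and 4.22, 5.5 and 1.75 in KO tumors. WT liver and WT tumor overlapped in it, and the difference of 0.92 ± 0.44 did not pass (adjusted p = 0.186). In KO all tumors lay above all livers in Ccne1, and the change of 1.54 ± 0.42 did not pass either (adjusted p = 0.05045). Its paralog Ccne2 stayed low throughout, at 0.184, 0.22 and 0.199 in WT liver, 0.125, 0.414 and 0 in KO liver, 0.303, 0.554 and 0.387 in WT tumors and 0.478, 0.0981 and 0.184 in KO tumors. E2f1, an activating E2F factor, was 1.41, 1.1 and 0.977 in WT liver, 2.13, 2.16 and 1.52 in KO liver, 2.72, 2.54 and 2.46 in WT tumors and 2.96, 2.79 and 1.91 in KO tumors. All WT tumors exceeded all WT livers in E2f1, which rose by 0.73 ± 0.13 (adjusted p = 0.0144). E2f8, an E2F that represses transcription, has a pair of entries in the tables, which differ in direction in KO. The higher entry was 10.4, 8.69 and 13.3 in WT liver, 7.51, 5.69 and 6.65 in KO liver, 4.09, 15.4 and 8.89 in WT tumors and 0.445, 3.34 and 4.03 in KO tumors. WT tumors overlapped with WT livers in it, and KO tumors lay below all KO livers (-1.26 ± 0.45, adjusted p = 0.0991). In the lower entry, given below, KO tumors and KO livers overlapped (0.39 ± 0.32).

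Origin licensing and firing genes, which build the MCM helicase at origins, rose in WT tumors in 5 of 9 tested members. The mean FPKM of Mcm2 to Mcm7, the subunits of that helicase, was 2.02 ± 0.43 in WT liver, 2.04 ± 0.16 in KO liver, 3.97 ± 0.39 in WT tumors and 6.36 ± 2.85 in KO tumors. Mcm6, with its E2F elements printed above, had an FPKM of 0.757, 2.62 and 1.03 in WT liver, 1.33, 1.35 and 0.876 in KO liver, 4.16, 5.12 and 4.58 in WT tumors and 11.1, 17 and 3.75 in KO tumors. The tumors of each genotype lay above its livers, and the rise was 1.25 ± 0.27 in WT (adjusted p = 0.0235) and 2.22 ± 0.45 in KO (adjusted p = 0.0249). Mcm5 was 0.822, 0.989 and 0.384 in WT liver, 0.994, 0.235 and 0.573 in KO liver, 2.68, 3.11 and 2.36 in WT tumors and 4.43, 5.62 and 1.87 in KO tumors, below 1 in every normal liver and above 1.8 in every tumor. It rose by 1.11 ± 0.17 in WT (adjusted p = 0.0105) and 1.58 ± 0.34 in KO (adjusted p = 0.0282). Mcm2 was 1.45, 2.55 and 1.85 in WT liver, 1.74, 1.37 and 2.21 in KO liver, 4.1, 4.51 and 3.08 in WT tumors and 7.01, 10.01 and 4.62 in KO tumors. It did not overlap between tumor and liver in either genotype, and it rose by 0.74 ± 0.19 in WT and 1.52 ± 0.27 in KO. Mcm3 rose in both genotypes too, by 0.58 ± 0.12 and 1.4 ± 0.28. Mcm4 and Mcm7 passed in neither, with 0.32 ± 0.15 and 0.54 ± 0.19 in WT, where the groups overlapped. In KO, Mcm4 gave 0.87 ± 0.24 (adjusted p = 0.0539), with all tumors above all livers. Mcm7 gave 0.31 ± 0.23 there (adjusted p = 0.375), with overlap.

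The loading factors were expressed at lower levels. Cdt1, which brings the helicase to origins, was 1.32, 0.875 and 0.298 in WT liver, 0.913, 0.591 and 0.69 in KO liver, 3.03, 1.47 and 1.36 in WT tumors and 2.58, 2.67 and 2.34 in KO tumors. Tumors and livers did not overlap in either genotype, and the change passed in KO (1.03 ± 0.16, adjusted p = 0.0127) but not in WT (0.68 ± 0.28, adjusted p = 0.136). Cdc6, the other loader, was under 0.5 in all 12 libraries and was not tested with the filter. Its FPKM was 0.0887, 0.0789 and 0.0246 in WT liver, 0.0132, 0.0214 and 0 in KO liver, 0.177, 0.335 and 0.218 in WT tumors and 0.363, 0.462 and 0.188 in KO tumors. Gins2, a subunit of the active helicase, was 0.967, 0.833 and 0.21 in WT liver, 1.79, 0.799 and 2.56 in KO liver, 2.27, 2.48 and 2.31 in WT tumors and 3.97, 6.9 and 2.45 in KO tumors. It rose in WT by 1.04 ± 0.20 (adjusted p = 0.0183), while in KO the groups overlapped (0.97 ± 0.36, adjusted p = 0.11).

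Mcm10, which activates the loaded helicase, went against the other members. Its entry read 154, 55.4 and 98.2 in WT liver, 184, 102 and 82.3 in KO liver, 30.5, 101 and 44.7 in WT tumors and 4.57, 7.19 and 44.6 in KO tumors, far above any other member in normal liver. KO tumors lay below all KO livers, and the fall was -3.19 ± 0.76 in KO (adjusted p = 0.0358), where 5.17% of tested entries fell. In WT the groups overlapped (-0.85 ± 0.50, adjusted p = 0.262). The other entry of that name read 5.73, 0.948 and 1.52 in WT liver, 3.22, 2.93 and 1.56 in KO liver, 0.63, 1.99 and 0.789 in WT tumors and 0.107, 0.189 and 0.699 in KO tumors, and it too was lower in the KO tumors than in KO livers. In the KO tumors Mcm10 stood at 4.57, 7.19 and 44.6, beside Apob at 100.4, 214 and 618. Cps1 kept that order (70.8, 173.1 and 476.5). Hnf4a, Ttr, Apoa1 and Serpina1a did not, with Apoa1 at 14530, 5458 and 14110. In KO livers Mcm10 and Apob ran in opposite orders, at 184, 102 and 82.3 beside 793, 946 and 1076. The part of hepatocyte content in this was not tested.

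Entries of the tables run in strand order, with 97.7% of neighbouring annotated entries on the same strand. E2f8 and Mki67 are annotated on the minus strand in GENCODE vM21, yet their higher entries each stand among 20 of 20 plus-strand neighbours, and a plus-strand gene model overlaps each of them there, Gm2788 and Gm45240. The lower entries of both names stand among minus-strand neighbours, 20 of 20 and 19 of 20. The higher entry of Mcm10 stands among 17 minus-strand neighbours of 20. The library kit does not keep strand, and 19 of the 51 members overlap a gene model on the other strand, so reads of such pairs cannot be told apart. For E2f8 the lower entry was 2.62, 2.45 and 8.14 in WT liver, 1.53, 0.389 and 1.12 in KO liver, 1.05, 3.47 and 1.9 in WT tumors and 1.16, 2.76 and 1.07 in KO tumors, and in it KO and WT tumors overlapped, as did KO tumors and KO livers, with a higher mean in KO tumors (1.67 against 1.01). Which entry of a repeated name holds the coding transcript was not tested.

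Among genes of the replication fork and nucleotide supply, Pcna and Tk1 were already well expressed in normal liver. Pcna, the sliding clamp of the polymerases, was 22.1, 20.1 and 22.5 in WT liver, 21.5, 22.9 and 22 in KO liver, 21.7, 26.2 and 27.3 in WT tumors and 33.8, 28 and 25.6 in KO tumors. WT tumors overlapped with WT livers in it (0.20 ± 0.12, adjusted p = 0.288), and the ratio of the KO means was 1.31. Tk1, which salvages thymidine, was 9.76, 13 and 9.39 in WT liver, 10.1, 10.7 and 10.9 in KO liver, 11.6, 11.6 and 13.5 in WT tumors and 15.6, 16.4 and 13 in KO tumors, a ratio of 1.14 in WT. It overlaps Afmid on the other strand. Tyms, which makes thymidylate, was 5.41, 5.69 and 4.48 in WT liver, 7.09, 5.3 and 6.19 in KO liver, 6.95, 9.16 and 11.2 in WT tumors and 7.74, 10.9 and 5.45 in KO tumors. It did not overlap between tumor and liver in WT and rose there (0.69 ± 0.18, adjusted p = 0.0421), but the KO groups overlapped. Rrm2, the S-phase subunit of ribonucleotide reductase, was 6.1, 4.64 and 5.07 in WT liver, 6.12, 2.29 and 7.23 in KO liver, 7.91, 9.66 and 13.6 in WT tumors and 7.05, 22.3 and 10.8 in KO tumors. It rose in WT (0.84 ± 0.20, adjusted p = 0.033), and in KO it did not pass (1.18 ± 0.47, adjusted p = 0.132).

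Uhrf1, which keeps DNA methylation in step with replication, was close to silent in normal liver, unlike the other genes of its role. Its FPKM was 0.0841, 0.188 and 0.0591 in WT liver, 0.125, 0.129 and 0.0527 in KO liver, 1.05, 1.25 and 0.943 in WT tumors and 3.56, 3.08 and 0.998 in KO tumors, so it was under 0.2 in every normal liver and above 0.9 in every tumor. The rise was 0.91 ± 0.13 in WT (adjusted p = 0.00854), a ratio of means of 9.78, and 1.6 ± 0.31 in KO (adjusted p = 0.0231), a ratio of 24.9. The 7 G1/S genes with an E2F element in their window (Cdc6, Cdt1, Mcm3, Mcm5, Mcm6, Mcm7 and Uhrf1) had a median ratio of tumor to liver means of 3.14 in WT and 6.61 in KO. The 9 matched G1/S genes without such an element (Ccne1, E2f1, E2f8, Mcm10, Mcm2, Pcna, Rrm2, Tk1 and Tyms) had 1.75 and 1.32. Among them, E2f8 and Mcm10, each a name with 2 entries, had KO ratios of 0.394 and 0.153. These medians cover few genes and were not tested.

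**Figure D4:**
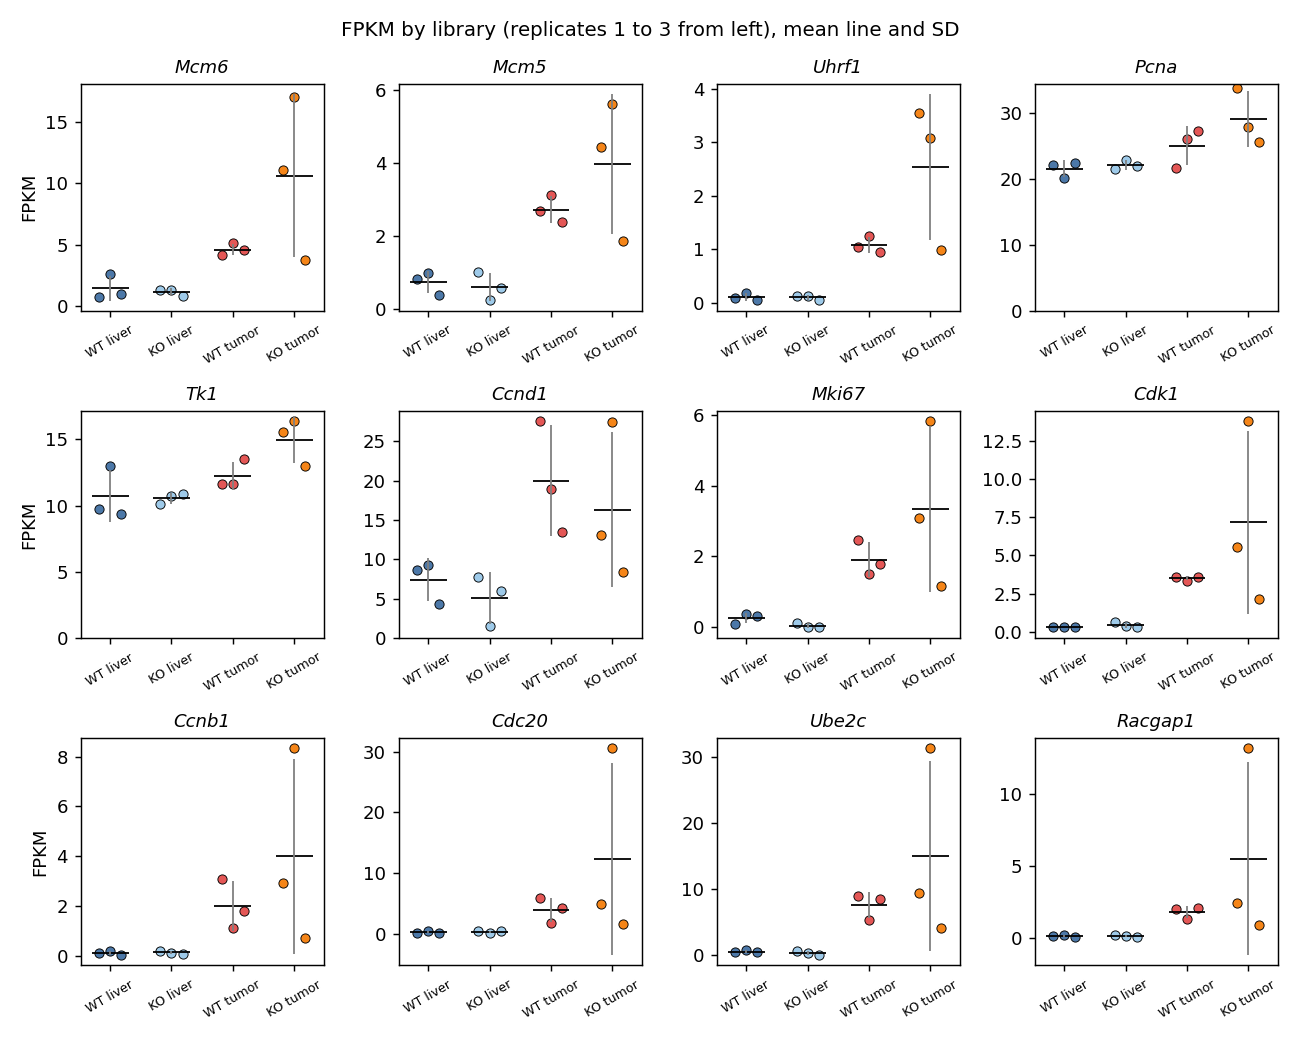
FPKM of 12 members in each library, with replicates 1 to 3 from left to right, a line at the mean and a bar for the SD. Pcna and Tk1 are expressed in all groups, Mcm5, Uhrf1 and the mitotic genes are below 1 in the 6 normal livers, and KO tumor 2 is the highest library in all mitotic panels.

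Genes of chromosome structure rose in tumors of both genotypes. Mki67, whose protein coats mitotic chromosomes and serves as the pathologist's marker of dividing cells, was 0.0865, 0.363 and 0.315 in WT liver, 0.11, 0 and 0.00522 in KO liver, 2.46, 1.49 and 1.77 in WT tumors and 3.07, 5.82 and 1.15 in KO tumors. Each tumor exceeded each normal liver, and the rise was 1.2 ± 0.17 in WT (adjusted p = 0.00841) and 1.92 ± 0.39 in KO (adjusted p = 0.0247). Its lower entry gave 0.106, 0.239 and 0.082 in WT liver, 0.183, 0.0844 and 0.0752 in KO liver, 1.36, 1.28 and 1.99 in WT tumors and 2.12, 4.13 and 0.71 in KO tumors, with the same order of the 3 KO tumors. Top2a, the topoisomerase that untangles sister chromatids, was 0.203, 0.474 and 0.102 in WT liver, 0.164, 0.146 and 0.0937 in KO liver, 2.7, 2.49 and 2.87 in WT tumors and 3.59, 6.62 and 1.19 in KO tumors. It did not overlap either, and it rose by 1.56 ± 0.15 in WT (adjusted p = 0.00258) and 1.91 ± 0.41 in KO (adjusted p = 0.0288).

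Mitotic cyclins and kinases showed the same separation. Cdk1, the kinase that starts mitosis, was 0.31, 0.300 and 0.292 in WT liver, 0.61, 0.36 and 0.291 in KO liver, 3.59, 3.34 and 3.57 in WT tumors and 5.56, 13.8 and 2.13 in KO tumors, with all WT livers near 0.3 and all WT tumors near 3.5. The rise was 1.79 ± 0.11 in WT (adjusted p = 0.000694) and 2.25 ± 0.51 in KO (adjusted p = 0.0313). Ccna2, the cyclin of S and G2 phase, was 0.272, 0.252 and 0.409 in WT liver, 0.229, 0.199 and 0.444 in KO liver, 4.49, 2.94 and 4.8 in WT tumors and 3.94, 8.35 and 1.19 in KO tumors. It rose by 1.94 ± 0.18 in WT and by 1.86 ± 0.48 in KO (adjusted p = 0.00205 and 0.0442). Ccnb1, the main mitotic cyclin, was 0.0876, 0.172 and 0.0307 in WT liver, 0.203, 0.105 and 0.0712 in KO liver, 3.07, 1.1 and 1.81 in WT tumors and 2.94, 8.34 and 0.719 in KO tumors. The tumors were clear of the livers in both genotypes, but of the 2 changes only that in WT passed (1.4 ± 0.24, adjusted p = 0.013), and KO gave 1.82 ± 0.55 (adjusted p = 0.0643). Its relative Ccnb2 was 0.316, 0.509 and 0.212 in WT liver, 0.496, 0.493 and 0.384 in KO liver, 6.94, 2.58 and 3.32 in WT tumors and 5.16, 13 and 3.04 in KO tumors, and it rose in both, by 1.89 ± 0.29 and 2.27 ± 0.42. Plk1, a kinase of mitotic entry and spindle assembly, was 0.0767, 0.241 and 0.275 in WT liver, 0.293, 0.233 and 0.11 in KO liver, 2.47, 1.47 and 2.34 in WT tumors and 2.79, 11.6 and 1.14 in KO tumors. It rose in WT (1.36 ± 0.17, adjusted p = 0.00619) and gave 1.95 ± 0.58 in KO (adjusted p = 0.0639). Foxm1, the transcription factor of the mitotic program, was 0.0645, 0.159 and 0.0423 in WT liver, 0.122, 0.0844 and 0.134 in KO liver, 0.818, 0.858 and 1.05 in WT tumors and 1.24, 3.09 and 0.565 in KO tumors in its joined entry. It rose in WT by 0.81 ± 0.13 (adjusted p = 0.0109). Aurka, the kinase of spindle poles, was the only member of its role above 0.8 in every normal liver, and it rose in WT by 1.17 ± 0.17.

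Checkpoint genes and the anaphase-promoting complex had the highest median change of the roles, 1.9 in WT and 2.36 in KO over 4 tested members. Ube2c, the ubiquitin-conjugating enzyme of that complex, was 0.475, 0.777 and 0.54 in WT liver, 0.694, 0.427 and 0.0713 in KO liver, 8.94, 5.43 and 8.49 in WT tumors and 9.52, 31.3 and 4.2 in KO tumors. It had the largest rise of any tested member in both genotypes, 2.41 ± 0.19 in WT (adjusted p = 0.00139) and 3.14 ± 0.61 in KO (adjusted p = 0.0221). Cdc20, an activator of the complex, was 0.227, 0.565 and 0.162 in WT liver, 0.458, 0.169 and 0.43 in KO liver, 5.87, 1.86 and 4.2 in WT tumors and 4.89, 30.5 and 1.67 in KO tumors. KO tumor 2 stood far above the other 5 tumors in it, and the rise of 1.84 ± 0.32 passed in WT (adjusted p = 0.013) while 2.56 ± 0.80 in KO did not (adjusted p = 0.0724). Cdca3, a factor that promotes entry into mitosis, was 0.543, 1.15 and 0.421 in WT liver, 1.74, 1.06 and 1.54 in KO liver, 6.47, 4.38 and 5.77 in WT tumors and 6.29, 35.1 and 3.83 in KO tumors. Here too KO tumor 2 was far above the rest, and the rise passed in WT (1.95 ± 0.20, adjusted p = 0.00346). Bub1b, a spindle checkpoint kinase, rose in WT by 0.83 ± 0.14. Bub1 never passed the filter, and its tumors reached 0.184 to 1.36 while all normal livers were under 0.04.

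Centromere and chromosomal passenger genes include Cenpa, the histone H3 variant of centromeres, which was 2.18, 1.92 and 1.18 in WT liver, 3.09, 2.48 and 2.56 in KO liver, 10.9, 4.31 and 6.65 in WT tumors and 6.04, 14.1 and 4.75 in KO tumors. Cenpa was the mitotic member with the highest mean in normal liver, and it rose in WT by 1.53 ± 0.30 (adjusted p = 0.0193). Birc5, the passenger protein survivin, was 0.358, 0.588 and 0.418 in WT liver, 0.975, 1.09 and 0.592 in KO liver, 5.94, 5.03 and 6.42 in WT tumors and 6.74, 16.4 and 2.88 in KO tumors. It rose by 2.22 ± 0.14 in WT (adjusted p = 0.000656) and 2.1 ± 0.49 in KO (adjusted p = 0.0352), with no overlap in either. Aurkb, the kinase of that complex, was 0.0455, 0.19 and 0.132 in WT liver, 0.167, 0.0468 and 0.0316 in KO liver, 2.23, 1.88 and 2.69 in WT tumors and 2.39, 6.36 and 0.954 in KO tumors, and it rose by 1.53 ± 0.14 in WT and 1.76 ± 0.44 in KO (adjusted p = 0.00222 and 0.0413). Cdca8, its borealin subunit, rose in WT by 1.07 ± 0.20. Cenpe, a kinetochore motor, and Cenpf, a kinetochore protein, were under 0.05 in all normal livers and never passed the filter, and their highest tumor values were 1.63 and 2.31, both in KO tumor 2.

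Spindle and cytokinesis genes had lower levels but the same order. Kif11, the motor that separates spindle poles, was 0.114, 0.199 and 0.116 in WT liver, 0.131, 0.176 and 0.184 in KO liver, 1.12, 0.819 and 0.904 in WT tumors and 1.48, 2.7 and 0.352 in KO tumors. It rose in WT by 0.77 ± 0.13 (adjusted p = 0.0125). The spindle genes Kif20a, Kif2c, Nusap1, Tpx2 and Hmmr also rose in WT, by 0.75 to 1.29. Anln, which scaffolds the contractile ring, was 0.119, 0.164 and 0.175 in WT liver, 0.0904, 0.121 and 0.232 in KO liver, 1.03, 0.631 and 0.878 in WT tumors and 1.26, 3.13 and 0.464 in KO tumors. It rose in WT by 0.67 ± 0.14 (adjusted p = 0.0207). Prc1, which bundles midzone microtubules, rose by 1.47 ± 0.18, and Racgap1, its centralspindlin neighbour, by 1.31 ± 0.16. Kif23, the motor of centralspindlin, and Ect2, the exchange factor it recruits, were the 2 tested mitotic genes that did not pass in WT, with 0.42 ± 0.19 and 0.51 ± 0.15 (adjusted p = 0.164 and 0.0546), although their WT groups did not overlap.

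The second comparison asked the same of KO tumors and KO liver. Here 42 of 51 members were higher in every tumor than in every liver, 12 G1/S and 30 mitotic genes, against 20.8% of all entries. The ratio of means had a median of 17.3 over mitotic genes and 2.87 over G1/S genes. Of the 46 tested members, 14 rose and 1, Mcm10, fell, while 9.09% of tested entries rose. Under TPM, 33 members rose, and the split of all entries moved from 1061 up and 603 down to 1791 and 281. The 6 G1/S genes that rose were Mcm2, Mcm3, Mcm5, Mcm6, Cdt1 and Uhrf1, and the 8 mitotic genes were Mki67, Top2a, Cdk1, Ccna2, Ccnb2, Ube2c, Aurkb and Birc5. With no filter, 1 member rose, Cdt1, against 2.09% of entries. The median change of the tested members was 1.46, and that of all tested entries -0.02. Fewer members passed than in WT although the median change was no smaller, and the SE was larger for the mitotic genes, as in Cdc20 with 1.84 ± 0.32 in WT and 2.56 ± 0.80 in KO. The number that rose depended on single libraries: it was 0 without KO liver 2 or KO liver 3, 1 without KO liver 1 or KO tumor 1, 15 without KO tumor 2 and 38 without KO tumor 3. The share of all tested entries that rose was 0.943% without KO liver 2 and likewise without KO liver 3, 1.99% without KO liver 1, 3.44% without KO tumor 1, 6.6% without KO tumor 2 and 13.5% without KO tumor 3. The fall of Mcm10 passed only in the last of these. Both tumor comparisons use different samples, and their difference is the interaction given below.

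The 3 KO tumors differed widely among themselves. KO tumor 2 was the highest of all 6 tumors in 31 of 31 mitotic genes and 9 of 20 G1/S genes. KO tumor 3 was the lowest in 26 of 31 mitotic genes and 7 of 20 G1/S genes. Set against WT tumors alone, KO tumor 1 lay above all of them in 20 mitotic and 11 G1/S genes (33.8% of all 18825 entries) and KO tumor 2 in 31 and 13 (42.8%), while KO tumor 3 lay below all of them in 26 and 9 (23.6%). Relative to the WT tumor mean, the median ratio over mitotic genes was 1.34 in KO tumor 1, 3.94 in KO tumor 2 and 0.544 in KO tumor 3, and over G1/S genes it was 1.30, 1.37 and 0.793. The WT values lay inside the range of the KO values in 26 of 31 mitotic genes and 5 of 20 G1/S genes. KO tumor 2 exceeded KO tumor 3 by a median ratio of 7.36 over mitotic genes (2.96 to 18.3) and 2.03 over G1/S genes. The mitotic mean was below the G1/S mean in KO tumors 1 and 3, by 0.69 and 1.26, and above it by 0.11 in KO tumor 2.

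Markers of other cells also differed between these libraries. The leukocyte markers (3 of 3 found: Ptprc, Cd52 and Laptm5) summed to an FPKM of 85.0, 110.5 and 62.3 in KO tumors 1 to 3, to 25.6 to 41.5 in WT tumors and to 17.2 to 31.5 in normal livers. The 6 T and NK cell markers summed to 6.18, 22.2 and 3.75 in the KO tumors, to 2.84 to 12.7 in WT tumors and to 1.15 to 3.97 in normal livers, and KO tumor 2 held the highest sum. The 6 macrophage and Kupffer markers summed to 98.2, 90.3 and 312 in KO tumors, 40.7 to 165 in WT tumors and 89.7 to 157 in normal livers. In KO tumor 3 most of that sum was Cd5l (140 by itself) and Clec4f (89.7), while Cd68, at 22.3, 48.5 and 27.6, was highest in KO tumor 2, and Csf1r stood at 26.8, 20.8 and 24.5. The 5 cholangiocyte markers did not move together. Spp1 alone was 554, 3505 and 254 in the KO tumors, whereas Krt19 (1.03, 1.01 and 5.13) and Krt7 (0.561, 0.403 and 2.57) were highest in KO tumor 3. Of the 6 stellate and fibroblast markers, Col1a1 was 33.2, 60.1 and 14.2 and Pdgfrb 3.88, 6.91 and 3.26 in the KO tumors, in the order of the mitotic means, against 3.78 to 5.04 and 1.15 to 1.84 in WT tumors. Lum kept that order too (5.605, 8.5 and 5.3). Dcn ran the other way, at 41.6, 37.1 and 125, as did Lrat, at 1.29, 0.519 and 1.565. Reln was also lowest in KO tumor 2 (4.82, 0.467 and 3.21). The interaction of genotype and tumor passed for 1 of these 6, Col1a1, at 2.60 ± 0.57 (limma, adjusted p = 0.0449, and 0.0849 with no filter). The 5 neutrophil markers summed to 29.8, 22.2 and 57.3 in KO tumors, 8.90 to 10 in WT tumors and 6.91 to 40.1 in normal livers. Hemgn, an erythroid marker, was 0 in 11 of 12 libraries. The mean log2(FPKM + 1) of 6 hepatocyte markers was 8.81, 9.22 and 10.16 in KO tumors and 10.35 to 10.77 in the other libraries. The part of any of these cells in the members' levels was not tested.

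The third comparison asked whether KO and WT tumors differ. No member passed limma's test at an adjusted p below 0.05. Of all tested entries 0.0771% passed. At an unadjusted p below 0.05 there were 3 of 46 members, against 17.6% of all tested entries. Members that did not overlap were Mcm2 and Mcm3, higher in KO (13.7% of all entries), and E2f8, lower in KO (7.34% of all entries). Mcm2 gave 0.70 ± 0.27 (adjusted p = 0.244), and E2f8 gave -1.57 ± 0.59 (adjusted p = 0.235). The median difference of the tested members was 0.35 beside 0.02 for all entries, and it became 0.76 without KO tumor 3 and -0.09 without KO tumor 2. Without KO tumor 2 the mean of mitotic genes was lower in KO than in WT, by 0.11, where it was higher by 0.42 with all libraries. Without KO tumor 3, Mcm6 (1.40 ± 0.22, adjusted p = 0.0459) and Uhrf1 (1.05 ± 0.16, adjusted p = 0.0449) rose in limma's test, where 1.4% of all tested entries rose. The difference of G1/S means was 0.02, and under median-of-ratios scaling it was -0.04. Of 18 tested G1/S genes 12 were higher in KO tumors, with a median of 0.22 over the 18, while Mcm10 gave -2.05 ± 0.82. Leaving out the members of a repeated or joined name, a setting chosen after the data were seen, gave 0.253. The groups overlapped there too.

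The fourth comparison set KO against WT normal liver, where 18.1% of all tested entries passed. Of the 46 tested members 0 passed with limma, and 11 had an unadjusted p below 0.05, against 37.6% of all tested entries. Over all 51, 6 members were higher in every KO liver (17.6% of all entries) and 5 were lower (14.2%). The 6 higher members were E2f1, Mcm7, Aurka, Bub1b, Cenpa and Birc5, and the 5 lower ones E2f8, Mcm3, Mcm4, Cdc6 and Cenpf. E2f8 came nearest to passing, at -0.62 ± 0.18 (adjusted p = 0.0507), and it passed with a pseudocount of 0.1 (adjusted p = 0.0495), after scaling to TPM (0.0476) and with median-of-ratios scaling (0.0494). E2f1 gave 0.44 ± 0.14 (adjusted p = 0.0681), and Ccne1 -1.08 ± 0.37 (adjusted p = 0.0835), with KO liver 1 at 1.61 and the other KO livers near 0.2. Without KO liver 1, Ccne1 and Ect2 fell, by 1.45 ± 0.30 and 0.53 ± 0.11 (adjusted p = 0.0275 and 0.0272), where 7.56% of all tested entries fell. The median difference of the tested members was 0.00, and of all entries 0.03.

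The interaction asked whether the KO effect differs between tumor and normal liver, which is the same as asking whether the tumor effect differs between genotypes. Among the 46 tested members 0 passed with limma, and 2.08% of all tested entries passed. At an unadjusted p below 0.05 there were 3 members, against 22.3% of all tested entries. The interaction was 0.79 ± 0.34 for Mcm2 (adjusted p = 0.202), 0.83 ± 0.32 for Mcm3 (adjusted p = 0.162) and -2.34 ± 1.02 for Mcm10 (adjusted p = 0.204). When KO tumor 3 was left out, Mcm2, Mcm3, Mcm6, Uhrf1 and Mki67 passed upward, at 1.04 to 1.51, and Mcm10 passed downward at -3.26, while 5.84% of all tested entries passed upward and 5.88% downward. For Mki67 that is the higher entry, which stands among plus-strand neighbours. The lower entry gave 0.29 ± 0.44 with all libraries (adjusted p = 0.7315). With all libraries, then, the different counts of members that passed in WT and in KO do not show a difference between the genotypes.

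Genes of the same pathway outside the member list were read against the same shares of all tested entries, of which 8.01% rose in WT tumors and 9.09% in KO tumors. Of 28 tested other mitotic genes, 18 rose and 1, Sgol1, fell in WT tumors against WT liver, and 4 rose in KO tumors against KO liver (Cdkn3, Mad2l1, Smc4 and Ncapd2). The filter kept 28 of 50 such genes, and genes low in normal liver enter it through the tumors, so these counts support nothing by themselves. With no filter, 25 of 50 rose in WT, against 3.42% of all entries, and 0 in KO, against 2.09%. Of the 18, 14 passed again in WT, and Sgol1 did not pass. Mad2l1, a spindle checkpoint protein, rose in both, by 1.76 ± 0.14 and 1.49 ± 0.38. Of 34 tested other replication genes, 9 rose in WT and 4 in KO, the latter near the share of all entries, and 5 and 2 of them passed with no filter. Over all 42 with no filter, 8 rose and 1 fell in WT, and 2 rose in KO. The 4 in KO were Lig1, the ligase of lagging strands (1.69 ± 0.26), Rrm1, the partner of Rrm2 (0.83 ± 0.22), Gmnn, the inhibitor of Cdt1 (0.88 ± 0.16), and Chaf1b, a histone chaperone subunit (1.49 ± 0.26).

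CDK inhibitors, which restrain the cycle, rose in part. Of 10 tested genes of this list and the RB family, 2 rose in WT tumors and 3 in KO tumors against normal liver, and 1 of each passed with no filter (Cdkn2c in WT and Cdkn2a in KO). Cdkn2c, an inhibitor of CDK4 and CDK6, was 1.98, 1.98 and 0.855 in WT liver, 2.02, 2.98 and 0.638 in KO liver, 5.04, 5.79 and 6.96 in WT tumors and 8.59, 11.8 and 6.4 in KO tumors, and it rose in both, by 1.44 ± 0.22 and 1.84 ± 0.36. Cdkn2b rose in WT by 2.36 ± 0.42, and Cdkn2a and Rbl1 rose in KO by 1.23 ± 0.15 and 1.0 ± 0.22. Cdkn1a, the inhibitor induced by p53, was 11, 5.03 and 12.7 in WT liver, 13.9, 29.2 and 15.7 in KO liver, 8.53, 38.9 and 44.3 in WT tumors and 17, 91.7 and 58.5 in KO tumors, overlapping between tumor and liver in both genotypes. In KO against WT normal liver, where 18.1% of all tested entries passed, Cdkn2d and Rb1 rose. Their changes were 0.82 ± 0.13 and 0.82 ± 0.15 (limma, adjusted p = 0.0141 and 0.0194), and 1 of the 2 passed with no filter.

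Among 15 tested other G1 regulators, E2f2 and Cks1b rose in WT tumors, and Ccnd3 and Myc rose in KO tumors; with no filter, E2f2 and Ccnd3 passed. Ccnd3, another D-type cyclin, was 21.8, 19.4 and 20.6 in WT liver, 17.5, 16.3 and 12.7 in KO liver, 24.8, 25.1 and 20.6 in WT tumors and 34, 36.6 and 37.5 in KO tumors. The KO tumors lay above all other libraries, while KO livers lay below all WT livers, and its interaction of 1.0 ± 0.20 passed (adjusted p = 0.0379). That call was lost with no filter (0.0555), under TPM (0.0681), with the replicate block (0.0542) and in 9 of the 12 omissions of a library (adjusted p over the 12, 0.0210 to 0.101). Myc, a growth-promoting transcription factor, was 16.8, 2.31 and 1.22 in WT liver, 1.88, 1.31 and 1.09 in KO liver, 3.69, 4.44 and 7.5 in WT tumors and 5.87, 6.21 and 13.2 in KO tumors, with WT liver 1 far above the other 5 normal livers. Cdk4, the kinase partner of D-type cyclins, passed in no comparison and stood between 24.2 and 36.3 in all libraries. In KO against WT normal liver, Cdk6, E2f4 and E2f6 fell, by 0.77, 0.64 and 0.53, and 0 of them passed with no filter. Over all the related lists, 5 of the 92 tested genes rose there and 5 fell, where 18.1% of all tested entries passed. Of 5 tested DREAM and MuvB genes, Lin52 fell in WT tumors (-0.63 ± 0.16) and Lin9 fell in KO normal liver (-0.42 ± 0.11). Neither fall passed with no filter. In KO tumors against KO liver 0 changed with limma, and 2 had an unadjusted p below 0.05, against 33.7% of all tested entries. Between KO and WT tumors 0 genes of all these lists passed, and 6 of the 92 tested had an unadjusted p below 0.05, against 17.6% of all tested entries.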

How the data were processed

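The authors deposited FPKM values, 1 table per library; per the submitters' processing notes they were made with TopHat2 2.1.1 and Cufflinks 2.2.1 on build mm10. Per the labels' protocols, polyadenylated RNA was selected and the library kit keeps no strand. Their options and annotation: not given in the sources used here. Values were analysed as log2(FPKM + 1). Entries with FPKM of 1 or more in at least 3 of 12 libraries (11671) were tested with limma 3.58.1 in R 4.3.3, with a variance trend, two-sided and Benjamini-Hochberg adjusted. Each comparison used its own 6 libraries, and the interaction all 12. The fit was tested on simulated data. Members were placed by symbol in GENCODE vM21, and promoters come from RefSeq (GRCm38.p6). The members and lists were chosen with earlier results of these data known. By a fixed rule, values in every library are printed for 29 preset members and the members with the largest called changes, and related genes by smallest adjusted p. Alternatives were pseudocounts of 0.1 and 5, other filters, TPM, median-of-ratios scaling, 1 joint fit, a block of replicate numbers, and omission of each library. The main fits did not pair samples by replicate number, and the labels do not say whether the numbers pair them. No comparison had all 3 same-numbered correlations above 0.1, and in KO against WT tumors they were 0.347, 0.01 and 0.091. So few samples cannot exclude a pairing or a shared batch.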

Additional observations from a re-analysis of the deposited data

Results flagged for a closer look

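For Ccnd3, a D-type cyclin outside the member list, the effect of the knockout was greater in tumors than in normal liver, by 1.0 ± 0.20 on the log2(FPKM + 1) scale (limma's interaction, adjusted p = 0.0379). It did not pass with no filter (adjusted p = 0.0555), under TPM, with the replicate block or in 9 of 12 omissions of a library. In the lower entry of Mki67, which the report's comparisons do not use, the lowest tumor (0.71 FPKM, KO tumor 3) lay above the highest normal liver (0.239 FPKM, WT liver 2).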

How the results depend on the processing

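In WT tumors against WT liver, the 36 rising members of 46 tested became 18 of 24 tested with a filter of mean FPKM 2 or more. They became 13 in 1 fit of all 12 libraries, and 18 to 35 when each library was left out. Of the 36, 17 passed in every such omission and 12 in every other setting apart from those chosen after the data were seen. In KO tumors against KO liver, the 14 rising members became 29 and 7 with pseudocounts of 0.1 and 5, and 1 with no filter. They became 8 of 24 tested with mean FPKM 2 or more, 33 under TPM and 40 in the joint fit. With no filter and a pseudocount of 0.1 (an alternative chosen after the data were seen) they became 8. They were 0 to 38 when each library was left out, and 1 of them, Cdt1, passed in all of the other settings so counted. The 1 falling member, Mcm10, was lost (0) with no filter at either pseudocount, and 0 to 2 fell in the omissions. In KO against WT normal liver, 1 member fell with a pseudocount of 0.1, under TPM and with median-of-ratios scaling, and 0 to 2 in the omissions. In KO against WT tumors 0 to 2 members rose in the omissions, and in the interaction 0 to 5 rose and 0 to 1 fell.

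Counts over all genes moved as follows. KO against WT normal liver called 2113, and 868 with no filter, 1144 in the joint fit, 830 with no filter and a pseudocount of 0.1, and 240 to 1964 in the omissions. KO against WT tumors called 9, and 1 with no filter at either pseudocount, 24 under TPM, 14 with median-of-ratios scaling, 1017 in the joint fit and 0 to 266 in the omissions. WT tumors against liver called 1981, and 1257 with no filter, 1105 in the joint fit and 454 to 2134 in the omissions. KO tumors against liver called 1664, and 543 with no filter, 1072 with mean FPKM 2 or more, 3340 in the joint fit, 974 with no filter and a pseudocount of 0.1, and 129 to 2981 in the omissions. The interaction called 243, and 56 with no filter, 115 under TPM, 66 with no filter and a pseudocount of 0.1, and 7 to 1368 in the omissions. Where an omission left 2 samples in a group, their spread was pooled with the other group's. TPM shifted the median change of all genes to 0.226 in WT tumors, 0.359 in KO tumors, 0.125 between KO and WT tumors and 0.137 in the interaction.

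With the replicate number as a block, 153 genes passed in KO against WT normal liver, 0 in KO against WT tumors, 1235 in WT tumors against liver, 1420 in KO tumors against liver and 114 in the interaction. The replicate block left 29 members rising in WT tumors and 19 in KO tumors. The labels give such samples a shared number and nothing more. Their correlations did not all exceed 0.1, which cannot exclude a pairing.

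The tumor rise of the mean of G1/S genes was 0.57 in WT and 0.66 in KO. With pseudocounts of 0.1 and 5 the WT rise was 0.926 and 0.261, the KO rise 1.118 and 0.278, and under TPM 0.886 and 1.11. The rise of the mean of mitotic genes was 1.22 and 1.6, with 2.573 and 0.443 in WT and 3.047 and 0.673 in KO at those pseudocounts, and 1.668 in WT under TPM. The gap between the mitotic and G1/S means narrowed by 0.652 in WT tumors and 0.935 in KO tumors. At those pseudocounts it narrowed by 1.648 and 0.182 in WT and by 1.929 and 0.3955 in KO. With a pseudocount of 5 the gaps of WT tumors and WT livers overlapped. Another setting, chosen after the data were seen, left out the 5 members of a repeated or joined name. With it the G1/S mean differed by 0.253 between KO and WT tumors and rose by 0.948 in KO tumors. The gap then narrowed by 0.575 in WT and 0.653 in KO. In the omissions the G1/S difference ranged from -0.170 to 0.009 between the livers and from -0.149 to 0.150 between the tumors, and rose by 0.508 to 0.599 in WT and 0.496 to 0.795 in KO tumors. The mitotic mean gave 0.000 to 0.077, -0.111 to 0.874, 1.122 to 1.344 and 1.069 to 2.054. The cause of these shifts was not tested. FPKM files hold no depth, which limits what can be said of members under an FPKM of 1.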
